A study of Mus musculus with 9 samples.

Results

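The comparison set J774A.1 cells carrying guide RNA number 15 against Slc12a9 beside J774A.1 cells carrying a control guide that the labels call safe, and covered all genes with enough reads. J774A.1 is a mouse macrophage line. The members were the 3 libraries labelled with sgRNA 15 and the 3 labelled with safe sgRNA, 6 of the 9 libraries of the series, and the other 3 libraries, from cells with a second Slc12a9 guide named sgRNA 11, were used to find where sgRNA 15 stood apart. The genotype label reads WT for safe sgRNA and SLC12A9 knockdown for both other guides, whereas the design text speaks of knockout cells, so groups are named here by guide. Cells of all groups were grown with 10% serum and glutamine and then held for 6 h in medium with antibiotics but without serum and glutamine before lysis, and polyadenylated RNA was sequenced. The labels give neither the guide sequence nor whether the cells were a pool or a clone, nor whether replicates were separate cultures. P-values therefore cover only how these samples vary, which may be technical variation, and a difference between guides cannot be told apart from a difference between the cell populations that carry them.

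Slc12a9 belongs to the SLC12 family of transporters that move chloride together with sodium or potassium, and the study looks at it in connection with the salt and water balance of lysosomes. Lysosomes are acidic compartments in which proteins, lipids and glycans are broken down. A proton pump, the V-ATPase, acidifies them, ion channels and exchangers balance the charge, and a control circuit of TFEB, TFE3 and MITF (the MiT/TFE factors) with the kinase complex mTORC1 adjusts the number and content of lysosomes to nutrient supply. In macrophages, which take up particles and dead cells, this system is large. Ammonia is a base that gathers in acidic compartments, and the design text notes, beside the glutamine-free medium, that cells form it from glutamine.

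Reads assigned to genes numbered 18817850 to 25613961 per safe library and 16405296 to 23521052 per sgRNA 15 library. Of 55487 gene identifiers, 13203 had at least 10 counts in at least 3 of the 6 libraries and entered the test, together holding 99.902% of all gene counts. Levels are given in CPM, gene counts brought to a common library size with scaling by trimmed mean of M-values, a scale on which levels of different genes cannot be compared because it takes no account of gene length. On the first principal component, with 60.85% of the variance, the safe libraries lay between -41.58 and -39.37 and the sgRNA 15 libraries between 17.34 and 18.14. The second, with 13.66%, separated sgRNA 15 (15.95 to 18.64) from sgRNA 11 (-18.61 to -13.5). In a chi-square test of replicate pairs, safe replicate 1 lay furthest from the others of its group (6.827 and 5.162 per degree of freedom), whereas its log2 CPM correlated with them at least as well as theirs with each other. All 10 macrophage markers were at 1 CPM or more. Their summed level was 6066 to 6214 CPM in safe libraries, 9545 to 9837 with sgRNA 11 and 7813 to 7887 with sgRNA 15, and most of that sum came from Lyz2 and Csf1r. The fibroblast list summed to 1.21 to 1.68 CPM with safe sgRNA and 1.88 to 2.69 with sgRNA 15, where Pdgfra alone of 8 genes reached 1 CPM and Col1a2, Col3a1, Dcn and Lum were at 0. The neutrophil and mast cell list summed to 1.77 to 2.83 and 3.48 to 4.06 CPM, where S100a8 alone of 8 genes reached 1 CPM and S100a9 was at 0, and no gene of the epithelial and lymphocyte lists reached 1 CPM.

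The mRNA of the targeted gene did not separate sgRNA 15 from safe sgRNA. Slc12a9 (ENSMUSG00000037344) lies on the minus strand of chromosome 5 from 137314558 to 137333597 in mm10. Its 3 safe sgRNA libraries gave 44.8, 53.5 and 47.02 CPM and its sgRNA 15 libraries 48.1, 49.9 and 51.8 CPM. The ranges overlapped, and the difference did not pass the test (log2 0.05, SE 0.05, adjusted p = 0.454 in edgeR's quasi-likelihood test with Benjamini-Hochberg adjustment, which holds for every adjusted p below). All 3 sgRNA 11 libraries (62.4, 66.5 and 67.2 CPM) lay above all 3 sgRNA 15 libraries (log2 -0.39 for sgRNA 15 against sgRNA 11, SE 0.05, adjusted p = 5.47e-10). Protein was not measured here, and whether sgRNA 15 edited its target gene or lowered the protein was not tested. Of the SLC12 family and its WNK, SPAK and OXSR1 kinases, 10 of 15 genes passed the filter on low counts and were tested. The potassium-chloride cotransporter gene Slc12a5 rose from 33.8 ± 0.857 to 47.7 ± 2.23 CPM (SD, n = 3). Oxsr1, a kinase that phosphorylates these transporters, fell from 97.2 ± 2.396 to 67.8 ± 3.59 CPM, and the sodium-potassium-chloride cotransporter gene Slc12a2 fell from 46.3 ± 0.463 to 38.6 ± 1.76 CPM.

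With sgRNA 15, stress genes of the amino acid response and genes of the lysosome were higher, and genes of inflammation, sterol and fatty acid synthesis, ribosome building and cell division were lower. At an adjusted p under 0.05, 4243 genes were higher (32.1% of those tested) and 4151 lower (31.4%), so 63.6% of all tested genes were called and the count for any gene list has to be read against these shares. Most differences were small. The median absolute log2 fold change of called genes was 0.40 with quartiles of 0.24 and 0.65, and 612 genes were higher (4.64%) and 253 lower (1.92%) by at least 1 on the log2 scale, 6.55% in all. Genes of low level made up much of these, since among the 9757 genes with a mean of at least 5 CPM these counts were 236 and 72. Against sgRNA 11, 2367 genes were higher with sgRNA 15 (17.9%) and 2125 lower (16.1%). Above both other groups stood 930 genes (7.04%), and below both stood 760 (5.76%); both tests use the same sgRNA 15 libraries. Genes named below were mostly chosen for small p-values or large changes. Groups without overlap among them therefore follow largely from the choice, and the share of all tested genes without overlap was not counted. In bulk RNA, fewer cells of a state and less RNA per cell cannot be told apart.

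**Figure D1:**
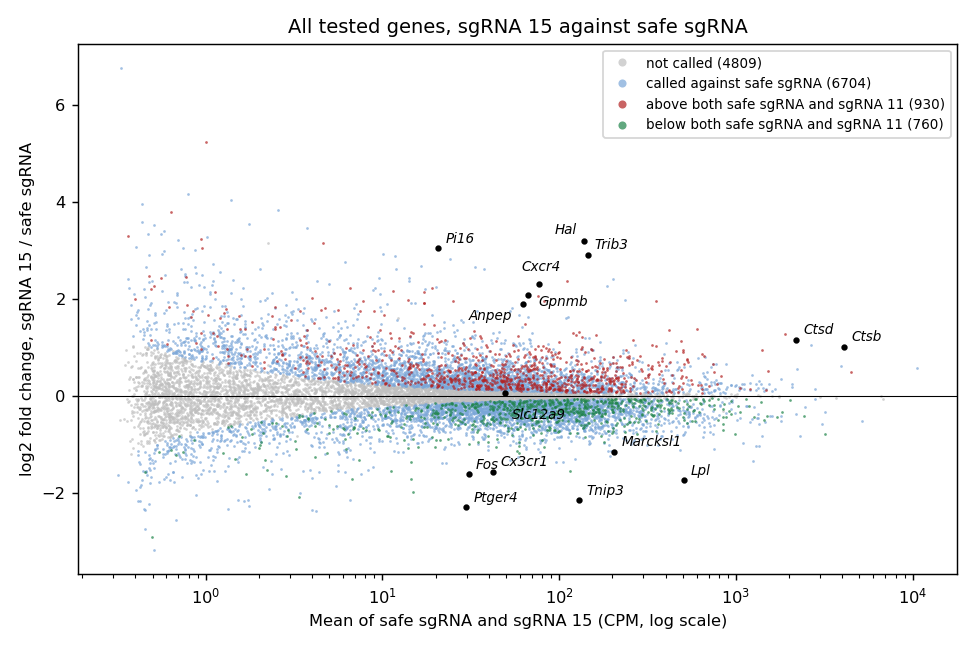
Each point is 1 of 13203 tested genes, with the mean level in safe sgRNA and sgRNA 15 libraries (CPM, log axis) against the log2 fold change of sgRNA 15 over safe sgRNA. Red marks the 930 genes above both safe sgRNA and sgRNA 11, green the 760 below both, and named genes are in black; Hal lies highest among them at a log2 of 3.19 and Slc12a9 lies near 0.

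Hal showed the largest rise among named genes, which had to average at least 5 CPM and carry an established symbol. It encodes histidine ammonia-lyase, which splits histidine into urocanate and ammonia. Its level was 26.3, 27.1 and 28.3 CPM in the safe libraries, 78.2, 78.5 and 80.7 with sgRNA 11 and 245, 250.1 and 248 with sgRNA 15. The 3 groups did not overlap, and sgRNA 15 was 9.12 times the safe level (log2 3.19, SE 0.04, adjusted p = 8.11e-68) and was above sgRNA 11 as well (log2 1.65, SE 0.03, adjusted p = 3.04e-53). The next was Pi16, peptidase inhibitor 16, at 3.95, 5.002 and 4.49 CPM with safe sgRNA and 36.3, 35.02 and 38.99 with sgRNA 15 (log2 3.04, SE 0.08), and it was lower than with sgRNA 11 (61.03, 64.6 and 68.7 CPM). Klhl33 (2.32 ± 0.4997 to 17.8 ± 0.207 CPM, SD, n = 3), the sterol-esterifying enzyme gene Soat2 (2.85 ± 0.224 to 20.7 ± 0.646), the ETS transcription factor gene Etv1 (5.97 ± 0.665 to 42.4 ± 0.721) and Nptxr (1.58 ± 0.324 to 10.7 ± 0.448) followed, the last with an uncertain value because its exons overlap those of another gene. Aqp9, a channel for water, glycerol and urea, went from 4.59, 5.26 and 3.57 CPM to 27.6, 30.3 and 27.5 (log2 2.66, SE 0.09). Trib3, Slc1a4 and Chac1 complete the 10. In all 10 the safe and sgRNA 15 libraries did not overlap, which follows largely from choosing the largest called rises. All 10 were also called higher with sgRNA 11, as were 33.3% of all tested genes, and Hal alone of the 10 was above both groups.

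The 10 largest falls among named genes ran from a log2 of -2.31 to -1.62. Tnip3, an inhibitor of NF-kB signalling, stood at 215, 214 and 208 CPM with safe sgRNA and at 47.5, 47.9 and 47.2 with sgRNA 15 (log2 -2.16, SE 0.04, adjusted p = 2.1e-58). Lpl, the secreted lipase that frees fatty acids from lipoproteins, went from 796, 788 and 759.7 CPM to 236, 233 and 228 (log2 -1.75, SE 0.03). In both genes every sgRNA 15 library was below every safe library, which follows largely from choosing the largest called falls. Dusp2, a phosphatase of MAP kinases (log2 -2.15), Cytip, a regulator of leukocyte adhesion (-1.98), Il13ra1, a subunit of the receptors for IL-4 and IL-13 (-1.73), and Gadd45b, a stress-response regulator (-1.62), fell as well. Ptgs2, the inducible cyclooxygenase of prostaglandin synthesis (-1.72), Fos, a subunit of the AP-1 transcription factor (-1.62), Tgfb3, a growth factor of the TGF-beta family (-1.87), and Ptger4, a prostaglandin E2 receptor (-2.31), complete the 10. The values of Tgfb3 and Ptger4 are uncertain because other genes overlap their exons. All 10 were called lower with sgRNA 11 too, as were 33.0% of all tested genes. Of the 10, 5 were lower again with sgRNA 15 than with sgRNA 11 and 3 were higher.

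**Figure D2:**
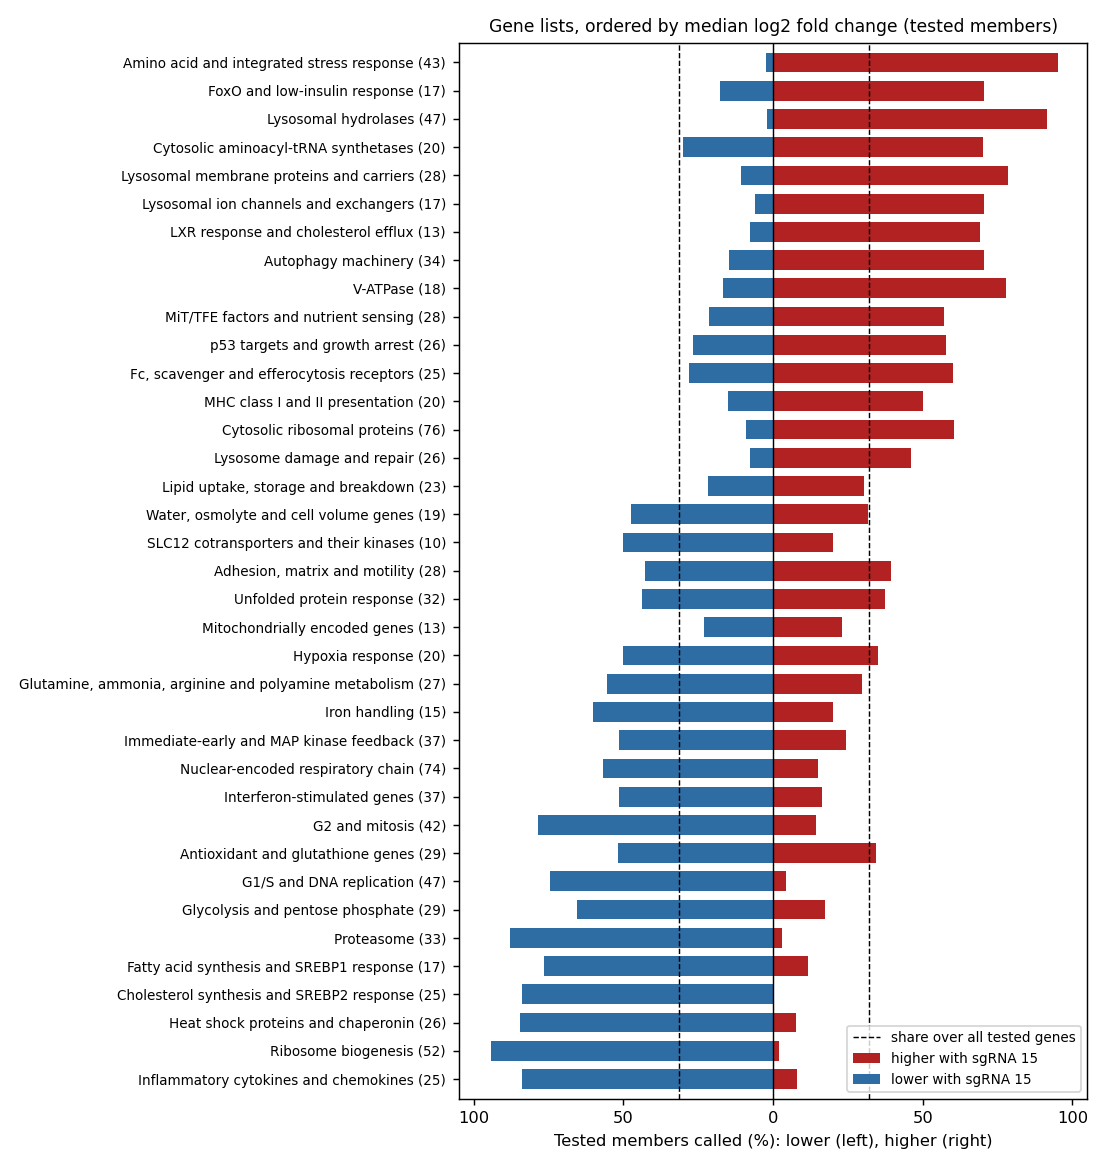
Bars give the percent of tested members of each of 37 gene lists that were called higher (red, to the right) or lower (blue, to the left) with sgRNA 15 against safe sgRNA, with the number tested in parentheses and lists ordered by their median log2 fold change. Dashed lines mark the shares over all tested genes (32.1% higher and 31.4% lower); the amino acid and integrated stress response stands at the top with 95.3% higher and the inflammatory list at the bottom with 84.0% lower.

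Genes of the integrated stress response rose together. ATF4 is the transcription factor of this response and switches on uptake and synthesis of amino acids and the loading of tRNAs when amino acids are short. Of 48 listed genes 43 passed the filter, and of these 41 rose and 1 fell. Their median log2 fold change was 0.96 where the median of all tested genes was 0.00, a value that the scaling holds near 0 (0.045 when scaled by library size only). With sgRNA 11 against the same safe libraries, 40 rose and 1 fell (median 0.88). Trib3, a pseudokinase that dampens insulin and ATF4 signalling, stood at 33.8, 32.9 and 35.5 CPM with safe sgRNA and at 246, 253 and 267 with sgRNA 15 (log2 2.91, SE 0.04, adjusted p = 5.51e-67). Chac1, an enzyme that breaks down glutathione, went from 10.6, 10.8 and 10.3 CPM to 61.6, 65.8 and 66.1 (log2 2.61, SE 0.06), and Slc1a4, a transporter of alanine, serine and cysteine, from 8.78, 9.803 and 9.13 CPM to 57.9, 57.6 and 57.2 (log2 2.64, SE 0.06). No safe library overlapped an sgRNA 15 library in these genes, which follows largely from their choice among the largest called rises. Atf5, a stress-induced transcription factor (log2 2.40), and Asns, asparagine synthetase (1.97), rose, and neither differed beyond the test from sgRNA 11 (log2 0.01 and 0.04 for sgRNA 15 against sgRNA 11, adjusted p = 0.721 and 0.295). Cth, which makes cysteine by transsulfuration, did: it stood at 36.05, 37.1 and 35.4 CPM with safe sgRNA, 126, 128 and 129.9 with sgRNA 11 and 187, 186 and 187 with sgRNA 15. Its sgRNA 15 libraries were thus the highest of the 3 groups, and 13 of the 43 members in all were above both groups. Atf3, a stress-induced repressor, was the member that fell, from 164, 164 and 170.03 CPM to 117, 118 and 122 (log2 -0.48, SE 0.03), and its sgRNA 11 libraries lay lower still (48.1, 41.6 and 46.9 CPM).

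Promoter sequences of 3 of the most raised genes are shown because they hold the letters TGATGNAA, part of the composite element that ATF4 and C/EBP proteins are known to bind. Each runs 5′ to 3′ on the gene's strand from 250 bases before to 50 after the start given by RefSeq on GRCm38.p6, and capitals mark the match on either strand. The windows are chr2:119350992-119351291 (plus strand) for Chac1, chr11:20332664-20332963 (minus strand) for Slc1a4 and chr9:71162584-71162883 (minus strand) for Aqp9, with matches beginning 193, 4 and 64 bases before the start.
Chac1: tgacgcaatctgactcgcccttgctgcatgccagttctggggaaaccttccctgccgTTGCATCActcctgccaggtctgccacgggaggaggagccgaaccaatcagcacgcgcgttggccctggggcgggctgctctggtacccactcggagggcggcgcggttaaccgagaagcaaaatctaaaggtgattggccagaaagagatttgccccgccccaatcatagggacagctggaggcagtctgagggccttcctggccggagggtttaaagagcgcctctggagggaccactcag
Slc1a4: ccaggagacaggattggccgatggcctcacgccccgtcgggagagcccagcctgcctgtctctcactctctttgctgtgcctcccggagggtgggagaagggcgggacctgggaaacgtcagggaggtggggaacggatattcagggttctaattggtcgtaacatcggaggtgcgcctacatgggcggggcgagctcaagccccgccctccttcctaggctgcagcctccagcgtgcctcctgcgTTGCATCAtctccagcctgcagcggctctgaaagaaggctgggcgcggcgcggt
Aqp9: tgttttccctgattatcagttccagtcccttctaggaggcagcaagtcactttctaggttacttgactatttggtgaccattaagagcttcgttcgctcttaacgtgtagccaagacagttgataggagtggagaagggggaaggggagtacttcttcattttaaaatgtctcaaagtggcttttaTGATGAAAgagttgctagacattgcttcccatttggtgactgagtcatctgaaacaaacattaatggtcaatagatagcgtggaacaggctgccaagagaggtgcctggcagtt
Of the 10 genes with the largest rise 8 had a promoter in the table, and 5 of these 8 (Trib3, Chac1, Pi16, Aqp9 and Slc1a4) held the letters. In the integrated stress response list it was 13 of 35 genes (37.1%). Among all tested genes with a promoter it was 270 of 9245 (2.92%), and among all 32851 promoters of this length 3.97%. These matches describe the sequence only.

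Cytosolic aminoacyl-tRNA synthetases, which charge tRNAs with amino acids, split into 14 that rose and 6 that fell of 20. With sgRNA 11 against safe sgRNA the counts were also 14 and 6. The list shares several members with the stress response list. Nars (309 ± 8.84 to 673 ± 2.98 CPM, SD, n = 3), Sars (350.2 ± 6.53 to 653 ± 11.3) and Gars (397 ± 5.77 to 659.6 ± 9.99) rose. Kars (log2 -0.61), Farsa (-0.43), Farsb (-0.17), Hars (-0.28), Dars (-0.24) and Vars (-0.16) fell. The unfolded protein response, set off by misfolded proteins in the endoplasmic reticulum, also split, with 12 of 32 members higher (37.5%) and 14 lower (43.8%). These shares were not far from those over all tested genes (32.1% and 31.4%). Its members of protein removal and redox control Sel1l (log2 0.70), Herpud1 (0.98), Derl1 (0.51) and Ero1l (0.63) rose. The sensor kinase genes Ern1 (19.5 ± 2.01 to 44.6 ± 1.09 CPM) and Eif2ak3 (log2 0.33) rose, and the folding helpers Calr (-0.49) and Pdia3 (-0.59) fell. These genes are examples from the called members, and a division by function was not tested.

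Most subunits of the lysosomal proton pump were higher with sgRNA 15 than in either other group. Of 19 V-ATPase genes 18 passed the filter, and of these 14 rose and 3 fell against safe sgRNA (median log2 0.28). Against sgRNA 11 15 were higher and 0 lower (median 0.28), and 12 were above both (66.7%, against 7.04% of all tested genes). Their median with sgRNA 11 against safe sgRNA was 0.01, and that comparison shares the safe libraries. Atp6v1a, the catalytic subunit that splits ATP, stood at 239, 229.8 and 229 CPM with safe sgRNA, 285, 278 and 283 with sgRNA 11 and 472, 475 and 475 with sgRNA 15. Its 3 groups did not overlap (log2 1.03, SE 0.03, adjusted p = 6.22e-48 against safe sgRNA). Atp6v1c1, a stalk subunit that takes part in assembling the pump, stood at 175, 180.3 and 172 CPM with safe sgRNA, 171, 168 and 174 with sgRNA 11 and 265, 264 and 266 with sgRNA 15, and the sgRNA 15 libraries were the highest. Tcirg1, a membrane subunit through which protons pass, was likewise higher with sgRNA 15 (360.3 ± 9.99 CPM) than with safe sgRNA (276 ± 10.1) or sgRNA 11 (283 ± 4.32, SD, n = 3 each). The accessory subunit gene Atp6ap1 rose from 270.4 ± 5.95 to 363 ± 3.11 CPM. The 3 genes that fell were Atp6v1b2 (log2 -0.20), Atp6v1h (-0.21) and Atp6v0a2 (-0.29).

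Lysosomal channels and exchangers showed 12 higher and 1 lower of 17 tested genes, out of 19 listed (median log2 0.35). For sgRNA 11 against safe sgRNA the counts were 10 and 3 (median 0.21). Clcn7, the exchanger that brings chloride into lysosomes, stood at 68.9, 65.3 and 63.3 CPM with safe sgRNA, 87.1, 87.7 and 86.7 with sgRNA 11 and 121, 118 and 111 with sgRNA 15 (log2 0.83, SE 0.04, adjusted p = 5.96e-31). Mcoln1, a calcium release channel, stood at 46.3, 45.5 and 47.3 CPM with safe sgRNA, 73.5, 73.03 and 74.3 with sgRNA 11 and 81.4, 85.8 and 79.4 with sgRNA 15. Both were highest with sgRNA 15, and in all 6 genes of the list were above both groups. Slc9a9, an endosomal sodium-proton exchanger, also rose, from 20.04, 18.6 and 19.2 CPM to 47.4, 46.3 and 40.8, but lay below sgRNA 11 (59.5, 60.9 and 62.4 CPM; log2 -0.44, adjusted p = 2.51e-11). The proton and potassium channel gene Tmem175 rose from 10.9 ± 0.2503 to 23.9 ± 1.06 CPM, a value that overlapping exons make uncertain. Clcn6 was the member that fell (log2 -0.24, adjusted p = 0.00324).

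**Figure D3:**
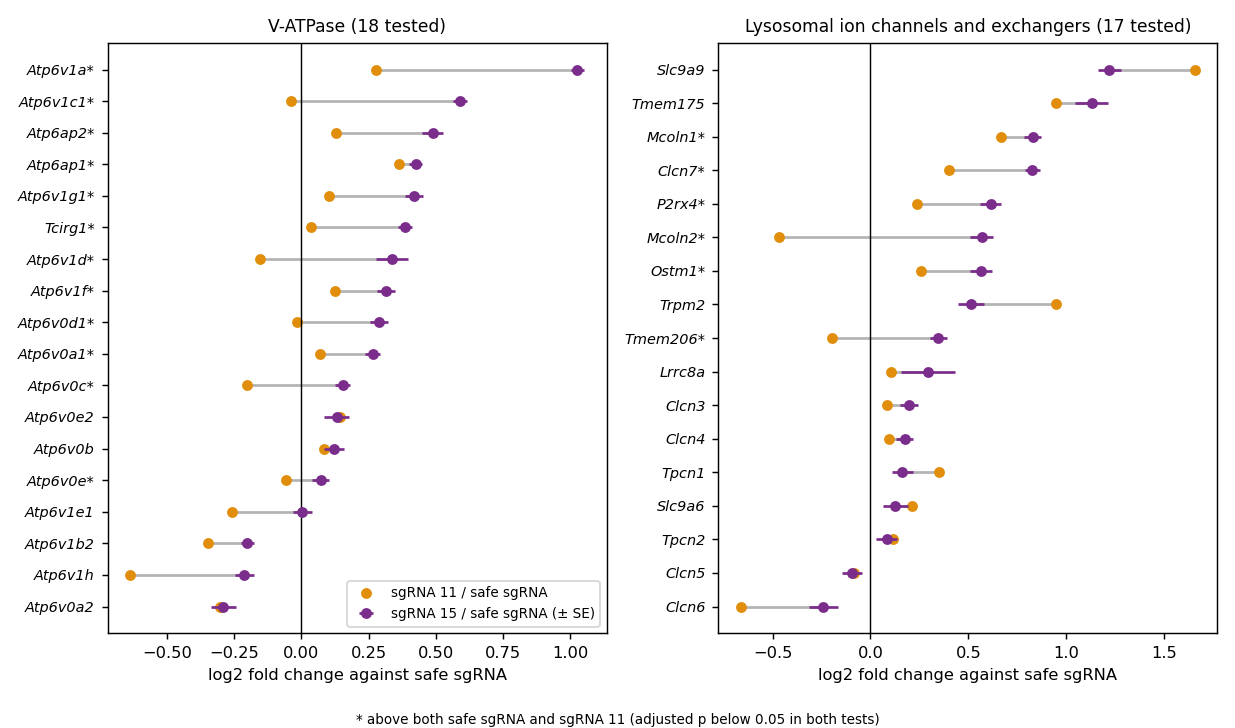
Purple points give the log2 fold change of sgRNA 15 against safe sgRNA with its standard error, and orange points that of sgRNA 11 against safe sgRNA, for 18 V-ATPase genes (left) and 17 lysosomal channel and exchanger genes (right). Both comparisons share the 3 safe libraries; an asterisk marks the 12 and 6 genes above both groups.

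Promoters of 3 of these genes are shown because they hold TCACGTG, an E-box of the kind in the CLEAR element that TFEB and TFE3 bind at lysosomal genes. Windows and build are as above, capitals mark matches on either strand, and where a match on a strand overlaps one on the other both count. They lie at chr16:44139210-44139509 (minus strand) for Atp6v1a, chr17:25133141-25133440 (plus strand) for Clcn7 and chr8:3500269-3500568 (plus strand) for Mcoln1.
Atp6v1a: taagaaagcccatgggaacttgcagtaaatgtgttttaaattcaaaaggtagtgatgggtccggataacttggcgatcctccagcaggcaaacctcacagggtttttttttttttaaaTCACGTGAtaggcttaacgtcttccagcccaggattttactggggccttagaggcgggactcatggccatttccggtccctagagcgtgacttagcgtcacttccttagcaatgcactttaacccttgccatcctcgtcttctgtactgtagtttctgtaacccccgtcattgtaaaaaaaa
Clcn7: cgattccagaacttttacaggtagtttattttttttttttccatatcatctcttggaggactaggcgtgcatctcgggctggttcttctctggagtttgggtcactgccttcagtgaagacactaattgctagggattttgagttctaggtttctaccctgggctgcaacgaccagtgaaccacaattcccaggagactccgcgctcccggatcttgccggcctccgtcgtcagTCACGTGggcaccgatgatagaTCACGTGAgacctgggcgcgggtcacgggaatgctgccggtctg
Mcoln1: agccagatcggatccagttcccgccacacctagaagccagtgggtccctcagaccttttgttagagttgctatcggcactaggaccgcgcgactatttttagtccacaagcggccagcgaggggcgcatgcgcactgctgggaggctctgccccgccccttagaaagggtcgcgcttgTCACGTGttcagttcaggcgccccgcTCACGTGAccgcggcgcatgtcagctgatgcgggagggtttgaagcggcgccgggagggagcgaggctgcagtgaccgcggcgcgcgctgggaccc
The letters were in 4 of 13 V-ATPase genes with a promoter in the table (30.8%), 4 of 14 channel genes (28.6%) and 9 of 38 hydrolase genes (23.7%), against 3 of 28 autophagy genes (10.7%) and 1 of 21 genes of lysosome damage and repair (4.76%). They were in 665 of 9245 tested genes (7.19%) and in 3.77% of all 32851 promoters. Lists outside the lysosome varied too, with 4 of 21 p53 genes (19.0%), 3 of 19 cholesterol synthesis genes (15.8%) and 0 of 27 proteasome genes. Among the 12 genes with the largest rise above both groups, 10 had a promoter in the table, and 0 of these held the letters.

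Among hydrolases, the enzymes that digest lysosomal cargo, 43 of 47 rose and 1 fell (median log2 0.51). Most of this rise was shared, since 41 rose and 4 fell with sgRNA 11 against safe sgRNA (median 0.39). Against sgRNA 11 the list moved both ways, with 23 higher and 10 lower. Naglu, which degrades heparan sulfate, stood at 75.2, 67.8 and 77.1 CPM with safe sgRNA, 137, 136 and 142 with sgRNA 11 and 173, 177 and 173 with sgRNA 15 (log2 1.25, SE 0.03 against safe sgRNA). Its groups did not overlap. The proteases Ctsd (1371, 1358 and 1352 to 3011, 2986 and 3088 CPM) and Ctsb (2703, 2711 and 2736 to 5471, 5425 and 5487 CPM) and the glycosidase subunit Hexa (348, 335 and 349.6 to 667, 662 and 656 CPM) rose too, with values that overlapping exons make uncertain. Ctsc, the protease that activates granule serine proteases, was the hydrolase that fell: it stood at 706, 683 and 701 CPM with safe sgRNA, 620.1, 598 and 616 with sgRNA 11 and 485, 482 and 479.9 with sgRNA 15, lowest in the last. Of 28 lysosomal membrane proteins 22 rose, 3 fell and 12 were above both groups. For sgRNA 11 against safe sgRNA 17 of the 28 rose and 5 fell (median log2 0.22). Gpr137b, a membrane protein that helps bring Rag GTPases to lysosomes, stood at 60.2, 64.2 and 64.2 CPM with safe sgRNA, 67.4, 64.3 and 64.5 with sgRNA 11 and 112, 121 and 118 with sgRNA 15. Safe sgRNA and sgRNA 11 did not differ beyond the test there (log2 0.06, adjusted p = 0.19) and all sgRNA 15 libraries lay above. Npc1, which moves cholesterol out of lysosomes (log2 0.78 against safe sgRNA and 0.53 against sgRNA 11), Mfsd1 (0.52 and 0.21) and the abundant glycoprotein gene Lamp1 (0.48 and 0.23) were also above both. Slc15a3 (log2 -0.43, uncertain), Slc15a4 (-0.34) and Spns1 (-0.12), which carry peptides or lipids out of lysosomes, fell.

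Genes of the circuit that controls lysosomes moved both ways. Of 28 tested genes of the MiT/TFE and nutrient sensing list 16 rose and 6 fell, 10 were above and 3 below both groups. Gpnmb, a glycoprotein and known MITF and TFE3 target, stood at 25.4, 25.3 and 26.2 CPM with safe sgRNA, 24.02, 22.7 and 25.98 with sgRNA 11 and 107, 109 and 107 with sgRNA 15. Safe and sgRNA 11 libraries overlapped, and sgRNA 15 was 4.204 times the safe level (log2 2.07, SE 0.05, adjusted p = 2.41e-49) and 4.43 times the sgRNA 11 level (adjusted p = 3.11e-49). Fnip2, a partner of folliculin in the control of Rag GTPases, stood at 151, 149 and 144 CPM with safe sgRNA, 119, 116 and 120.1 with sgRNA 11 and 253, 264 and 254 with sgRNA 15, lowest with sgRNA 11 and highest with sgRNA 15. Sesn2, a leucine sensor that is also an ATF4 target, rose (log2 1.61), and Lamtor1, part of the lysosomal anchor of mTORC1, rose (0.45, uncertain). The factors' own genes split, with Tfeb and Tfe3 lower and Mitf higher. Tfeb stood at 46.4, 49.5 and 55.7 CPM with safe sgRNA, 44.2, 44.8 and 42.01 with sgRNA 11 and 32.5, 36.6 and 35.2 with sgRNA 15 (log2 -0.53, SE 0.06), and Tfe3 fell by 0.17 on the log2 scale. Tfeb and Tfe3 were also lower than with sgRNA 11 (log2 -0.33 and -0.25), as was Sesn1, a p53- and FoxO-responsive sestrin (38.1, 40.98 and 39.4 CPM with safe sgRNA, 24.03, 25.8 and 23.3 with sgRNA 15). Mitf, named here after its values were seen, stood at 28.4, 29.4 and 30.9 CPM with safe sgRNA and at 34.9, 37.4 and 31.04 with sgRNA 15 (log2 0.23, SE 0.06, adjusted p = 0.000739), with the lowest sgRNA 15 library just above the highest safe library. Rraga, a Rag GTPase (log2 -0.59), the mTORC1 subunit gene Rptor (-0.18) and Mlst8 (-0.31, uncertain) fell.

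Autophagy genes, which wrap cell contents for delivery to lysosomes, showed 24 higher and 5 lower of 34 (median log2 0.29). With sgRNA 11 against safe sgRNA the counts were also 24 and 5 (median 0.28). The cargo receptor genes Sqstm1 (log2 1.37, uncertain) and Calcoco1 (1.29) and the membrane tags Map1lc3b (0.60) and Gabarap (0.52) rose. Of the genes that detect or mend damaged lysosomes 12 of 26 rose and 2 fell, and for sgRNA 11 against safe sgRNA the counts were 11 and 2. Lgals3, a galectin that gathers on broken lysosomal membranes, stood at 469, 483 and 483 CPM with safe sgRNA, 613, 629 and 608 with sgRNA 11 and 830.3, 822 and 889 with sgRNA 15, without overlap (log2 0.82, SE 0.02 against safe sgRNA). Lgals8 likewise stood above both groups (log2 0.84 against safe sgRNA and 0.52 against sgRNA 11). Lgals9 (log2 0.48) and the lipid transfer protein gene Osbpl9 (0.80) rose, and Lgals1 (-0.21) and Anxa2 (-0.14) fell.

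Genes for making cholesterol fell with sgRNA 15, and fell less far than with sgRNA 11. SREBP2 drives these genes when membranes are short of sterol, and SREBP1 drives fatty acid synthesis. Of 25 tested cholesterol genes 21 fell and 0 rose (median log2 -0.57). In the test of sgRNA 15 against sgRNA 11, 22 of the 25 were higher and 0 lower (median 0.52). Cyp51, a demethylase of the pathway, stood at 168, 163 and 152 CPM with safe sgRNA, 61.1, 56.3 and 56.5 with sgRNA 11 and 93.6, 91.96 and 96.2 with sgRNA 15. The sgRNA 15 libraries lay between the other groups without overlap (log2 -0.78, SE 0.04 against safe sgRNA and 0.69, SE 0.04 against sgRNA 11). The same order held for Tmem97, a sterol-regulated membrane protein (log2 -1.08 and 0.28) and the thiolase gene Acat2 (-0.86 and 0.58). Of 17 fatty acid genes 13 fell and 2 rose, and 13 were higher than with sgRNA 11 and 0 lower. Scd2, a desaturase, stood at 1803, 1799.5 and 1789 CPM with safe sgRNA, 589.5, 579 and 594 with sgRNA 11 and 1005, 1020.3 and 1012 with sgRNA 15, again in between. Fasn, the fatty acid synthase (log2 -0.74 against safe sgRNA), Acly (-0.54), which makes cytosolic acetyl-CoA, and Fads2 (-0.84) fell. Acacb, an acetyl-CoA carboxylase tied to mitochondria (log2 0.75), and Mid1ip1 (0.36, uncertain) were the 2 that rose.

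Most genes that export or esterify cholesterol rose, with 9 of 13 members of the LXR and efflux list higher and 1 lower. Soat1, which esterifies cholesterol for storage, stood at 321, 326 and 317 CPM with safe sgRNA, 396, 392 and 387 with sgRNA 11 and 520.1, 531 and 514 with sgRNA 15, highest in the last. Nceh1, a hydrolase that acts in the reverse direction, was higher than safe with sgRNA 15 and lower with sgRNA 11 (266, 266 and 267 CPM with safe sgRNA, 182, 180.2 and 179 with sgRNA 11 and 391, 389 and 401 with sgRNA 15). The small GTPase gene Arl4c rose (log2 1.05), and Lpcat3 fell (-0.24, uncertain). The lipid uptake and storage list had 7 higher and 5 lower of 23 (30.4% and 21.7%, against 32.1% and 31.4% of all tested genes). In it the lipid droplet coat genes Plin2 (log2 0.39) and Plin3 (0.71) rose, both above sgRNA 11, and the fatty acid carrier gene Fabp5 fell (-0.47).

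Inflammatory genes fell, with 21 of 25 tested members lower and 2 higher (median log2 -0.89). The counts with sgRNA 11 against safe sgRNA were 19 lower and 1 higher (median -0.88), so the list as a whole fell about as far with either guide. The chemokine genes Ccl2, Ccl3 and Ccl4, which draw monocytes and other leukocytes, fell less than with sgRNA 11. Ccl2 stood at 160.2, 145 and 149 CPM with safe sgRNA, 32.6, 29.7 and 34.3 with sgRNA 11 and 59.3, 57.7 and 58.6 with sgRNA 15. Ccl4 stood at 106, 109 and 100.4 CPM with safe sgRNA, 24.5, 20.4 and 22.4 with sgRNA 11 and 57.4, 53.7 and 55.8 with sgRNA 15. In Ccl2, Ccl3 and Ccl4 the sgRNA 15 libraries lay between the other groups (log2 -1.38, -0.89 and -0.92 against safe sgRNA and 0.85, 1.18 and 1.30 against sgRNA 11). The list as a whole had 9 members higher and 6 lower than with sgRNA 11. Csf1, the macrophage growth factor (4.97 ± 1.08 to 7.67 ± 0.427 CPM, SD, n = 3), and Ccrl2, a chemokine-binding receptor (5.55 ± 0.6904 to 8.36 ± 0.937), were the 2 that rose.

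Most genes of the interferon response and of antigen presentation were lower with sgRNA 15 than with sgRNA 11. Of 37 tested interferon-stimulated genes, 6 were higher and 19 lower than with safe sgRNA, 22 were lower and 1 higher than with sgRNA 11, and 10 were below both groups (5.76% over all genes). Irf7, the factor that amplifies interferon production, stood at 38.9, 39.9 and 37.3 CPM with safe sgRNA, 49.4, 49.2 and 48.05 with sgRNA 11 and 26.9, 25.7 and 28.5 with sgRNA 15, lowest in the last and highest with sgRNA 11. Ifi44 (log2 -0.63) and Cmpk2 (-0.62) fell against safe sgRNA. Oas1g, a sensor of double-stranded RNA whose value is uncertain because the Oas1 genes are near-identical, rose (27.9, 32.1 and 30.2 to 62.6, 65.5 and 61.5 CPM, log2 1.08), though below the level with sgRNA 11. Of 20 MHC presentation genes 10 rose and 3 fell against safe sgRNA, and 14 were lower and 0 higher than with sgRNA 11. Cd74, the chaperone of MHC class II, stood at 355, 361 and 365 CPM with safe sgRNA, 438, 439.6 and 455 with sgRNA 11 and 311, 299.9 and 301 with sgRNA 15, without overlap. Tap1, part of the peptide pump for MHC class I, lay between the other groups (51.8, 52.6 and 52.5 CPM with safe sgRNA, 84.5, 90.4 and 88.01 with sgRNA 11 and 64.5, 66.4 and 64.4 with sgRNA 15).

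**Figure D4:**
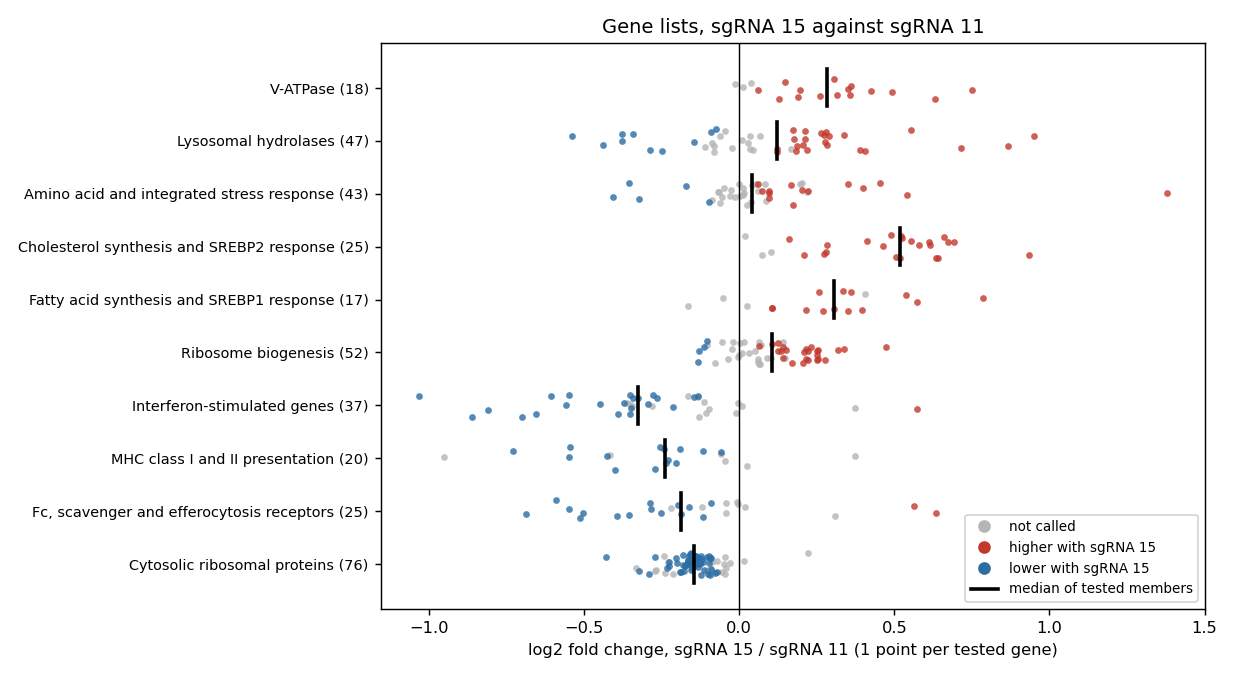
Each point is the log2 fold change of sgRNA 15 over sgRNA 11 for 1 tested gene of 10 lists (number tested in parentheses), red where higher and blue where lower at an adjusted p under 0.05, and black bars are list medians. The cholesterol list has 22 of 25 genes higher with sgRNA 15 and 0 lower, and the MHC list 14 of 20 lower and 0 higher.

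Receptors for particles and dead cells rose in 15 and fell in 7 of 25 tested genes, and 15 were lower than with sgRNA 11. Fcgr2b, the inhibitory receptor for IgG, stood at 146, 146 and 140.03 CPM with safe sgRNA, 378, 375 and 384 with sgRNA 11 and 556, 555 and 571 with sgRNA 15 (log2 1.96, SE 0.03, adjusted p = 6.4e-65 against safe sgRNA). The activating receptors went apart: Fcgr3 rose (log2 0.87) and Fcgr1 fell (-0.34). Trem2, a lipid-sensing receptor, rose (log2 0.70), with no difference called from sgRNA 11 (adjusted p = 0.92), the integrin gene Itgb5 rose (1.19) and the scavenger receptor gene Scarb1 fell (-0.64). Clec7a, the receptor for fungal glucans, which the annotation lists as a polymorphic pseudogene, fell below both groups (log2 -0.92 against safe sgRNA and -0.69 against sgRNA 11). The summed macrophage markers given above were higher with both guides than with safe sgRNA, and their part in these differences was not tested.

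Genes of growth were lower. Ribosome biogenesis, the making of ribosomes in the nucleolus, had 49 of 52 tested genes lower and 1 higher (median log2 -0.61). With sgRNA 11 against safe sgRNA the counts were also 49 and 1 (median -0.66). Ncl, the main nucleolar protein, stood at 1870.00, 1845 and 1765 CPM with safe sgRNA and 897, 879 and 884 with sgRNA 15, and Nop2, an rRNA methyltransferase, at 264, 278 and 271 CPM with safe sgRNA and 120.5, 121 and 128 with sgRNA 15. No library overlapped between these groups in either gene, and both genes were named for their small p-values. The ribosomal proteins themselves went the other way, with 46 of 76 higher and 7 lower by small amounts (median 0.12), and 56 were lower than with sgRNA 11. Many have near-identical copies in the genome, so single ribosomal protein values are uncertain. Of DNA replication genes 35 of 47 fell and 2 rose, and of mitotic genes 33 of 42 fell and 6 rose. Among them were the ribonucleotide reductase subunits Rrm1 (log2 -0.53) and Rrm2 (-0.58), the replicative helicase subunit Mcm3 (-0.53), the mitotic activator Cdc20 (-0.78) and the kinase Aurka (-0.59). Proteasome subunits (29 of 33 lower, 1 higher) and chaperones (22 of 26 lower, 2 higher) fell too, the latter led by Hsp90aa1 (log2 -1.10) and Hspd1 (-0.85). With sgRNA 11 against safe sgRNA, lower members numbered 32 (DNA replication), 34 (mitosis), 32 (proteasome) and 21 (chaperones). The higher ones there numbered 6, 4, 0 and 0.

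In glucose metabolism 19 of 29 tested genes fell and 5 rose, and with sgRNA 11 against safe sgRNA 21 fell and 4 rose. Ldha, which turns pyruvate into lactate, stood at 1784, 1806 and 1820.2 CPM with safe sgRNA and 702, 714 and 701 with sgRNA 15 (log2 -1.35, SE 0.02). The lactate transporter gene Slc16a1 fell (log2 -1.31), as did the glycolytic enzyme genes Tpi1 (-0.99) and Pkm (-0.78, uncertain) and the glucose transporter gene Slc2a1 (-0.86). The myeloid hexokinase gene Hk3 rose, from 90.8 ± 0.763 to 176 ± 4.71 CPM (SD, n = 3). Nuclear genes of the respiratory chain fell in 42 and rose in 11 of 74 cases (median log2 -0.14), and with sgRNA 11 42 fell and 14 rose. In the glutamine, ammonia and polyamine list 8 of 27 rose (29.6%, against 32.1% of all tested genes) and 15 fell (55.6%, against 31.4%). Its 4 members with the smallest p-values rose: Asns, Gpt2, which makes alanine (log2 1.80), and Pycr1 (2.24) and Aldh18a1 (0.96), which make proline. Of the iron genes 3 of 15 rose and 9 fell. They included a fall of the transferrin receptor (Tfrc, log2 -0.66) and of the iron reductase gene Steap3 (-0.63), and a rise of ferroportin, the iron exporter (Slc40a1, log2 0.89), and of the ferritin heavy chain (Fth1, 0.48), both also above sgRNA 11. Of the genes for water, osmolytes and cell volume 6 of 19 rose (31.6%, against 32.1% of all tested genes) and 9 fell (47.4%, against 31.4%). They included Aqp9, the amino acid transporter gene Slc38a2 (log2 0.47), the anion channel subunit gene Lrrc8d (0.46) and the sorbitol-making aldose reductase gene Akr1b3, which fell (-0.43).

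The 12 genes with the largest rise above both groups included cell surface proteins and enzymes. Besides Gpnmb and Hal they held Anpep, a membrane aminopeptidase (CD13), at 27.6, 25.5 and 26.8 CPM with safe sgRNA, 24.2, 24.2 and 23.6 with sgRNA 11 and 104, 101 and 90.3 with sgRNA 15. The last were 3.699 times the safe level on average (log2 1.89, SE 0.05, adjusted p = 2.17e-45; against sgRNA 11 log2 2.04, adjusted p = 3.03e-46). Cxcr4, the receptor for the chemokine CXCL12, rose in steps, with 25.2, 27.4 and 25.1 CPM with safe sgRNA, 54.4, 53.9 and 57.8 with sgRNA 11 and 126, 132 and 127 with sgRNA 15. Tecpr1, a protein that joins autophagosomes to lysosomes and binds damaged lysosomes, did so as well, with 34.5, 32.4 and 33.7 CPM with safe sgRNA, 53.4, 54.4 and 51.8 with sgRNA 11 and 126, 130.2 and 136 with sgRNA 15. Il7r, a subunit of the interleukin 7 receptor, stood at 11.5, 10.005 and 9.62 CPM with safe sgRNA, 11.2, 8.74 and 10.9 with sgRNA 11 and 28.4, 28.6 and 29.2 with sgRNA 15, with no difference called between safe sgRNA and sgRNA 11. Tenm4, a teneurin (4.17 ± 0.363, 5.05 ± 0.433 and 18.8 ± 0.675 CPM, SD, n = 3), Bhlhe40, a transcriptional repressor (13.5 ± 0.767, 12.4 ± 0.4305 and 29.5 ± 0.789), and Slc6a8, the creatine transporter (53.6 ± 2.73, 54.3 ± 2.34 and 109 ± 2.62), showed the same pattern. Hpgds, a prostaglandin D synthase (log2 1.34 against safe sgRNA and 1.02 against sgRNA 11), Havcr2, the receptor TIM-3 (5.12 ± 0.276, 5.91 ± 0.0264 and 11.8 ± 0.5603 CPM), and Bcar3 (log2 1.18 and 1.49, uncertain) complete the 12. In all 12 the sgRNA 15 libraries overlapped neither other group, which follows largely from choosing large differences from both. With sgRNA 11 itself, 4 of the 12 were called higher than with safe sgRNA, 2 lower and 6 not called.

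**Figure D5:**
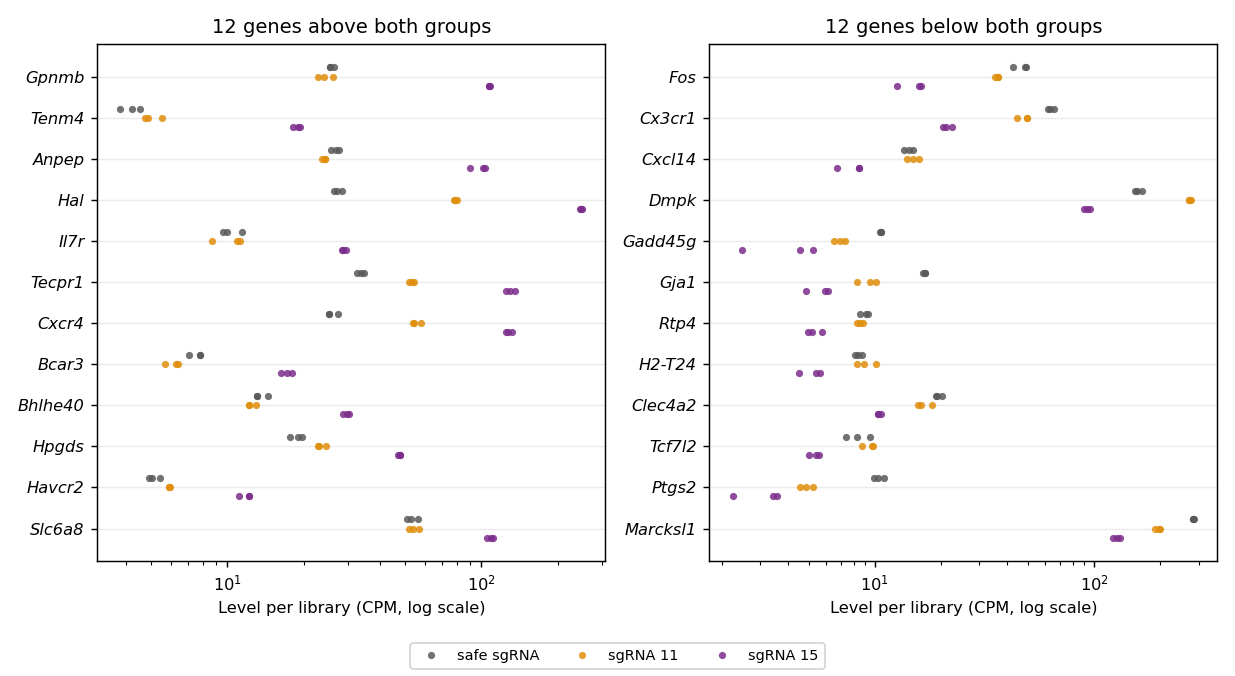
Levels per library (CPM, log axis) are shown for the 12 genes with the largest rise above both groups (left) and the 12 with the largest fall below both (right), with safe sgRNA in grey, sgRNA 11 in orange and sgRNA 15 in purple. In all 24 genes the 3 purple points lie outside the range of the other 6 libraries; the genes were chosen for these differences.

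Of the 12 genes with the largest fall below both groups, Fos led. It stood at 42.8, 48.7 and 48.2 CPM with safe sgRNA, 36.3, 36.5 and 35.2 with sgRNA 11 and 16.2, 15.98 and 12.6 with sgRNA 15 (log2 -1.62, SE 0.07, adjusted p = 7.3e-34 against safe sgRNA; -1.25, SE 0.07, adjusted p = 6.76e-26 against sgRNA 11). Cx3cr1, the fractalkine receptor of monocytes and macrophages, stood at 65.9, 62.8 and 61.7 CPM with safe sgRNA, 49.2, 44.7 and 49.3 with sgRNA 11 and 21.2, 22.4 and 20.4 with sgRNA 15. Marcksl1, an actin and calmodulin binding protein, stood at 282, 282 and 287 CPM with safe sgRNA, 190.1, 198 and 201 with sgRNA 11 and 127, 122 and 131 with sgRNA 15. In these 3 genes sgRNA 11 lay between the other groups. Gja1, the gap junction protein connexin 43 (log2 -1.56 against safe sgRNA and -0.70 against sgRNA 11), Gadd45g (-1.34 and -0.71), Ptgs2 (-1.72 and -0.63) and the lectin receptor gene Clec4a2 (-0.89 and -0.68) had the same order. Cxcl14, a chemokine (-0.85 and -0.93), the Wnt-responsive transcription factor gene Tcf7l2 (-0.66 and -0.82), H2-T24, of the MHC family with near-identical members and so uncertain (-0.69 and -0.80), and Rtp4 (-0.77 and -0.70, uncertain) did not differ beyond the test between sgRNA 11 and safe sgRNA. Dmpk, described with the opposite changes, is the last of the 12. Of the 37 immediate-early and MAP kinase feedback genes tested, 19 fell and 9 rose against safe sgRNA and 10 were below both groups. The list did not move as 1 block, since Etv1, the pluripotency and monocyte factor gene Klf4 (log2 1.74) and Dusp6, a phosphatase of ERK kinases (0.71), rose.

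Some genes, 1.9% of those tested, went in opposite directions with the guides, each against the same 3 safe libraries. Higher with sgRNA 15 and lower with sgRNA 11 were 136 genes (1.03%), and lower with sgRNA 15 and higher with sgRNA 11 were 115 (0.871%). Mmp12, the macrophage elastase, stood at 47.5, 48.4 and 39.1 CPM with safe sgRNA, 17.96, 16.7 and 16.4 with sgRNA 11 and 62.7, 63.2 and 70.1 with sgRNA 15. Zfp469, whose counted feature is annotated as a long non-coding RNA, stood at 10.3, 9.499 and 11.7 CPM with safe sgRNA, 3.16, 4.76 and 3.22 with sgRNA 11 and 16.3, 18.6 and 18.2 with sgRNA 15. In both the sgRNA 15 libraries were the highest and the sgRNA 11 libraries the lowest, as in Nceh1, in Disp3 (log2 0.61 with sgRNA 15 and -0.61 with sgRNA 11, each against safe sgRNA) and in Chst11, a chondroitin sulfotransferase (0.59 and -0.83). Dmpk, a protein kinase known from myotonic dystrophy, showed the reverse order, with 157, 154 and 166 CPM with safe sgRNA, 271, 271 and 278 with sgRNA 11 and 92.98, 95.9 and 90.1 with sgRNA 15. So did Asb2, a ubiquitin ligase subunit (log2 -0.62 with sgRNA 15 and 0.44 with sgRNA 11), Fgd2, an activator of the GTPase CDC42 (-0.48 and 0.43), the integrin gene Itga8 (-0.57 and 0.43) and Irf7. In all 10 genes the libraries of the guides did not overlap, which follows largely from choosing large opposite changes.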

How the data were processed

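RNA-seq libraries of J774A.1 cells were assigned to groups from their guide labels (3 safe sgRNA, 3 sgRNA 11, 3 sgRNA 15). The deposited values are whole-number counts of reads per Ensembl gene, deposited by the authors; the submitters' processing notes name STAR, HTSeq and mm10. Versions, annotation and strand setting: not given in the sources used here. Tally rows that name no gene held 19.31 to 20.69% of each table and stayed out of library sizes and tests. Symbols and positions came from GENCODE M21 (55141 of 55487 identifiers matched), and named genes sharing at least 10% of their exon length with another gene are called uncertain. Genes with processed pseudogenes or near-identical copies (among them Ldha, Tpi1, Fth1 and the ribosomal proteins) are uncertain too.

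Genes with at least 10 counts in 3 of the 6 safe sgRNA and sgRNA 15 libraries were tested in R 4.3.3 with edgeR 4.0.16: TMM scaling, a robust quasi-likelihood fit to all 9 libraries with 1 coefficient per group (6 residual degrees of freedom) and 2-sided F tests, with Benjamini-Hochberg adjustment over all 13203 genes and a threshold of 0.05. The biological coefficient of variation was 2.809%. A gene was above or below both groups where sgRNA 15 passed against safe sgRNA and sgRNA 11 in 1 direction. Standard errors were derived from the F statistics. The procedure was run on simulated data in which only a small share of genes differed. Since far more genes were called here, that run does not give error rates for these data. No replicate pair agreed within sampling noise in a chi-square test.

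Named genes were Slc12a9; the 10 largest rises and falls; the 12 largest in each direction beyond both groups, by the smaller of the 2 differences; the 5 largest of each opposite order; and from each of 37 gene lists up to 4 members with the smallest p plus those called against the list's direction, all with a mean of at least 5 CPM. Members and lists were chosen with earlier results of these data known, so counts and medians of lists are descriptions. Promoters came from RefSeq (GRCm38.p6) by symbol. Alternatives were DESeq2 1.42.0, limma-voom (limma 3.58.1), other scalings and filters, a replicate block, a GC and length correction, a fit of 6 libraries and each library left out.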

Additional observations from a re-analysis of the deposited data

Results flagged for a closer look

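The following genes are Slc12a9 and the 10 named genes that were called in opposite directions with the guides against safe sgRNA. Each is given with its direct test of sgRNA 15 against sgRNA 11 in edgeR (adjusted p under 0.05), a test that 4492 genes passed (34.0%). For the 10 named genes a difference between the guides follows from how they were chosen, so passing adds no support. Slc12a9 itself was lower with sgRNA 15 (log2 -0.39), and sgRNA 11 was above the safe level (log2 0.44). Zfp469 (log2 2.28), Mmp12 (1.93), Chst11 (1.42), Disp3 (1.22) and Nceh1 (1.13) were higher with sgRNA 15 than with sgRNA 11, on opposite sides of the safe level. Dmpk (-1.55), Asb2 (-1.07), Itga8 (-1.0), Fgd2 (-0.92) and Irf7 (-0.86) were lower, again on opposite sides. With 3 libraries in each group, single values were not tested for an outlying library.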

How the results depend on the processing

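Counts of called genes stayed within 1.5 times their value in all alternatives but 1 filter: with a mean of at least 5 CPM, 236 genes were higher and 72 lower by at least 1 on the log2 scale, in place of 612 and 253, and fewer genes (9757) were tested there. DESeq2 called 3858 higher and 3872 lower. The share of calls that were higher was 50.5%, 56.1% with library size only and 46.4% after the GC and length correction. The Slc12a9 difference from safe sgRNA, which passed in none of the alternatives, turned its sign after that correction (log2 -0.026), after it with the replicate block (-0.029) and without safe replicate 1 (-0.014); leaving out 1 library at a time gave -0.014 to 0.118. The cause was not tested. Without 1 library, 3862 to 4286 genes were higher and 3869 to 4181 lower. Without safe replicate 1, 875 genes were above and 798 below both groups. Of 6747 values of named genes under 20 settings, 6690 kept their side of the threshold, 57 no longer passed and 0 turned. Most named genes were chosen for small p-values or large changes, so such stability follows largely from the choice. It does not speak for all called genes. Of 1480 list counts 24 moved by over 1.5 times, 9 of them from a count of at least 5. List medians near 0 turned for the SLC12, adhesion, water, lipid storage and mitochondrial lists. It was not settled whether replicate numbers pair samples. Same-numbered safe and sgRNA 15 libraries correlated by 0.06, 0.06 and 0.02 in their deviations, and differently numbered ones by -0.08 to 0.02. With the replicate block 4290 genes were higher and 4204 lower. With no filter on low counts 253 falls of at least 1 became 363, with 26475 genes tested; sequencing depth was not varied.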

Other observations

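Genes that stop growth were mixed. The FoxO and low-insulin list holds genes that FoxO factors raise when growth factors are scarce. Of its 17 tested genes 12 rose with sgRNA 15 (70.6%, against 32.1% of all tested genes) and 3 fell (17.6%, against 31.4%), with a median log2 of 0.58. For sgRNA 11 against safe sgRNA the counts were 12 and 1 (median 0.77). In the test of sgRNA 15 against sgRNA 11, 6 were lower and 1 higher. Tsc22d3, the glucocorticoid- and FoxO-responsive zipper protein, stood at 6.63, 6.47 and 5.03 CPM with safe sgRNA and 23.4, 22.9 and 22.9 with sgRNA 15. Irs2, an insulin receptor substrate, stood at 12.4, 14.05 and 16.1 CPM with safe sgRNA and 30.3, 33.1 and 29.4 with sgRNA 15. Both groups were apart in each gene. Trib1, a pseudokinase, fell below both groups (log2 -0.57 against safe sgRNA and -0.55 against sgRNA 11). Of 26 p53 and growth arrest genes 15 rose and 7 fell, and for sgRNA 11 against safe sgRNA the counts were 16 and 5. Bbc3, the death-promoting protein PUMA, rose (log2 1.67), and Pmaip1, its relative NOXA, fell (-0.80). Plk2, a stress-responsive kinase, stood at 199.8, 199.5 and 193 CPM with safe sgRNA, 32.3, 35.4 and 36.9 with sgRNA 11 and 100.2, 98.5 and 97.9 with sgRNA 15, in between without overlap.

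Among redox genes 10 of 29 rose (34.5%, against 32.1% of all tested genes) and 15 fell (51.7%, against 31.4%). Slc7a11, the cystine importer, stood at 7.904, 6.11 and 6.05 CPM with safe sgRNA, 24.3, 22.8 and 24.3 with sgRNA 11 and 34.2, 30.1 and 29.95 with sgRNA 15, highest in the last. Catalase (Cat, log2 0.58) rose, and thioredoxin (Txn1, -0.62) and glutathione reductase (Gsr, -0.64) fell. In the adhesion list 11 of 28 rose (39.3%) and 12 fell (42.9%). The actin genes Actb (log2 -0.52) and Actg1 (-0.42) fell. Itgal, a leukocyte integrin, stood at 151, 157 and 167 CPM with safe sgRNA, 555, 534 and 539.98 with sgRNA 11 and 302, 303 and 298 with sgRNA 15, and fibronectin (Fn1) at 26.5, 27.7 and 27.995 CPM with safe sgRNA, 93.9, 99.3 and 96.8 with sgRNA 11 and 43.9, 47.1 and 43.9 with sgRNA 15, both in the same order of groups.

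Along the genome, 629 overlapping windows of 40 neighbouring tested genes were scanned, and those named next were picked with their values in view. The window with the largest fall against both groups, by the smaller of the differences, lay on chromosome 5 from 135908409 to 137858106, the stretch that holds Slc12a9. Its median log2 difference for sgRNA 15 was -0.10 against safe sgRNA and -0.13 against sgRNA 11. Windows elsewhere came close, with smaller differences of -0.09 on chromosome 7, -0.089 on chromosome 17 and -0.088 on chromosome 10. The largest rise lay on chromosome 13 from 91880400 to 98815449, with medians of 0.16 and 0.14.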
